A study of Arabidopsis thaliana with 22 samples.

Results

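The 41 tau and phi glutathione transferase genes of Arabidopsis thaliana were followed through 22 RNA-seq libraries of whole seedlings. They comprised 28 genes of the tau class (GSTU1 to GSTU28) and 13 of the phi class (GSTF2 to GSTF14), were taken by locus code, and all 41 were found among the 24185 loci of the count table. The seedlings belonged to 6 accessions, or inbred natural strains: T1080, Mh-0, Lip-0, Got-7, C24 and Ba-1. Each had grown for 14 days on soil with 16 h of light at 22 °C and 8 h of dark at 18 °C, was labelled as given ultraviolet light (UV) of 312 nm (4.35 W per square metre) or as mock-treated, and was harvested after 3 h. How long the UV lasted is not stated in the labels. Accession and treatment together made 12 groups, of which 10 had 2 libraries each and Got-7 UV and T1080 mock had 1. Nothing in the labels says that the libraries of a group were separate plants, so p-values describe only the spread between samples, which may be technical.

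Libraries are numbered here by their count columns. By the labels, Ba-1 UV was in columns 3 and 4 and Ba-1 mock in 1 and 2, and C24 UV was in 7 and 8 and C24 mock in 5 and 6. Got-7 UV was in 11 and Got-7 mock in 9 and 10, and Lip-0 UV was in 14 and 15 and Lip-0 mock in 12 and 13. Mh-0 UV was in 18 and 19 and Mh-0 mock in 16 and 17, and T1080 UV was in 21 and 22 and T1080 mock in 20.

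Glutathione transferases join the tripeptide glutathione to reactive, electrophilic molecules, after which the conjugates are pumped into the vacuole and broken down. The tau class is particular to plants and, with the phi class, is known for its part in herbicide and xenobiotic detoxification and for transcripts that respond to stress. Many members lie in arrays of neighbouring copies, so relatives can be compared within the same libraries. Some have named roles outside detoxification. GSTF12 is needed for anthocyanin to reach the vacuole, GSTF6 has been placed in the synthesis of the antimicrobial compound camalexin, and GSTF11 and GSTU20 have been placed in the synthesis of aliphatic glucosinolates.

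The members' values did not separate by labelled treatment. They were compared in 2 ways, first UV against mock by the labels and then columns 12 to 22 against columns 1 to 11 within 6 blocks of columns. The blocks, A to F, set column 12 against 1 and 3 (A), 13 and 14 against 2 and 4 (B), 15 and 16 against 5 and 6 (C), 17 and 18 against 7 (D), 19 and 20 against 8 and 9 (E), and 21 and 22 against 10 and 11 (F). The sets cut across labelled treatment, and the blocks cut across labelled treatment and accession. Columns 12 to 22 held 6 libraries labelled UV and 5 labelled mock, all labelled Lip-0, Mh-0 or T1080, and columns 1 to 11 held 5 labelled UV and 6 labelled mock, all labelled Ba-1, C24 or Got-7. Each block mixed libraries of 2 to 4 labelled accessions. By the labels, the difference between the sets cannot be told apart from one between those labelled accessions. The sets and blocks are named by column number and are not groups of the study. They were drawn up with values of these libraries known, and the p-values do not account for that choice.

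The 22 libraries held 3539510 to 20903894 counts each (median 9264888.5). Levels are given as CPM, the counts scaled to a common library size with TMM factors (trimmed means of M-values), and 3 counts, the limit that a count of 0 allows, equalled 0.15 to 0.861 CPM (counting error only). Of the 41 members, 37 had at least 1 CPM in at least 2 libraries and were tested among 18149 genes. Of these 37, 8 would not have passed on columns 1 to 11 alone (GSTU2, GSTU3, GSTU6, GSTU11, GSTU12, GSTU15, GSTU25 and GSTF5), so they could only be tested because they were higher in columns 12 to 22. The 4 untested members were GSTU14, GSTU21, GSTU22 and GSTF13, whose highest values in any library were 0.934, 0.145, 0.853 and 0.574 CPM. Library 3 (labelled Ba-1 UV 1) stood above the other libraries of columns 1 to 11 for many members, and values without it are given below. The leaf markers fixed as a list were present (RBCS1A, LHCB1.3, LHCB2.1, RCA and PSBO1 summed to 22450 to 37340 CPM in columns 12 to 22, against 37980 to 47180 CPM in columns 1 to 11), and all 5 fell in columns 12 to 22 by edgeR. The root markers summed to 52.3 to 225 CPM in columns 12 to 22, against 93.3 to 271 CPM in columns 1 to 11, and 3 of the 5 were under 1 CPM in every library. The flower markers summed to at most 1.58 CPM in columns 12 to 22 and at most 5.22 CPM in columns 1 to 11. The part of leaf, root or flower markers in the results below was not tested, and fewer cells of a type cannot be told apart from less RNA per cell.

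The 250 bases before the annotated start of a gene are shown for 7 members whose copies or levels are compared below. They were read from the RefSeq genome of build TAIR10.1, in the direction of the gene, since the count table holds no coordinates, and the submitters' processing notes name TAIR9 and TAIR10. Coordinates here and below are those of TAIR10.1. Capitals mark TGACG on either strand (read as CGTCA on the other), the core bound by TGA-type bZIP factors, which are known regulators of detoxification genes. GSTU9 had the largest difference between the column sets, GSTU4 had a large one with no TGACG, and GSTU27 had the largest fall. GSTU25 and GSTU26 are adjacent copies that moved apart, as are GSTF9 and GSTF10.
GSTU9 (chr5:25089627-25089876, minus strand): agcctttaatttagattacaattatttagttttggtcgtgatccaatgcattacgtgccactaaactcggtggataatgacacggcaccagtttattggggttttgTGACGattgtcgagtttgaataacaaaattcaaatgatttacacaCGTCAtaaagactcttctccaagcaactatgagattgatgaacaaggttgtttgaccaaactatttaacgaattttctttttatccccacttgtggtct
GSTU4 (chr2:12627892-12628141, minus strand): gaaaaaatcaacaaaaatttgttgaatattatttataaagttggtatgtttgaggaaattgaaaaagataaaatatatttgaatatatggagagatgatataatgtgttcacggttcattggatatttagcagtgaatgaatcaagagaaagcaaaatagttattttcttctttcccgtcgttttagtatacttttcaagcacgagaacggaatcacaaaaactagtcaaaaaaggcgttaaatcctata
GSTU27 (chr3:15660520-15660769, plus strand): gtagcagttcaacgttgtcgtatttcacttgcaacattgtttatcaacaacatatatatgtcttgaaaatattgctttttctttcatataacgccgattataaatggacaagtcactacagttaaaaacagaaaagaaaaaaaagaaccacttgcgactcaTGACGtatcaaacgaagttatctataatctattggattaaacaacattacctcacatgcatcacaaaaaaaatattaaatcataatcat
GSTU25 (chr1:5871774-5872023, plus strand): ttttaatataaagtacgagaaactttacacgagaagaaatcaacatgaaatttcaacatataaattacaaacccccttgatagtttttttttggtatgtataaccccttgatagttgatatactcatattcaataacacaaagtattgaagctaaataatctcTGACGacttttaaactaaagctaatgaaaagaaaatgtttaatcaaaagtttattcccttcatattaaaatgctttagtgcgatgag
GSTU26 (chr1:5875045-5875294, plus strand): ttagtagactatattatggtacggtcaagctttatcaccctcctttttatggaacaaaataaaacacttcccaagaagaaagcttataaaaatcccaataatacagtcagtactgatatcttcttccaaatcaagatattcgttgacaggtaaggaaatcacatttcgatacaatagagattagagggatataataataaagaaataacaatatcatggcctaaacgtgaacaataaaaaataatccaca
GSTF9 (chr2:13138632-13138881, plus strand): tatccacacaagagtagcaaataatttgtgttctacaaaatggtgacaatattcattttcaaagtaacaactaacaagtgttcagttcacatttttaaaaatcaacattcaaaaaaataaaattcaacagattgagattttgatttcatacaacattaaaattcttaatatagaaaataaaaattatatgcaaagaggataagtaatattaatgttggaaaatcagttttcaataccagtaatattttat
GSTF10 (chr2:13141040-13141289, plus strand): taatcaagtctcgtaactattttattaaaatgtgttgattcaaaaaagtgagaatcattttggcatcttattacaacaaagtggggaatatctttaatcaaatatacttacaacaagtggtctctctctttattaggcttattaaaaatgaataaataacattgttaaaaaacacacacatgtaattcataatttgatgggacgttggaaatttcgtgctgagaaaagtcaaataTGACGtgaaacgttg
TGACG was found in the 250 bases of 14 of the 41 members (34.1%), against 18.6% of 27443 protein-coding genes. It was in 11 of the 24 members whose log2 difference between the column sets passed 1 and in 3 of the other 17 (GSTU5, GSTU22 and GSTU27). The W-box TTGACC or TTGACT, on either strand, was in 21 members (51.2%), against 28.4% of all. The G-box CACGTG was in 3 members (7.32%), against 6.49% of all, and the mitochondrial dysfunction motif was in 2 (4.88%), against 1.75% of all. No stretch can match the W-box and TGACG in full at once, since they differ in the letter after TGAC, though matches can share end letters. These are descriptions of letters in a window, not of binding.

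By the labels, edgeR called no member for UV against mock. In the mean over the 6 accessions 0 of 37 tested members and 0% of all genes had an edgeR adjusted p under 0.05, and 0 members and 504 genes had an unadjusted p under 0.05. Within single accessions 0 members passed by edgeR, while 0.27% of all genes did in C24, 0.00551% in T1080 and 0% in each of the other 4. DESeq2 called 6 members in C24 (GSTF2, GSTF3, GSTF6, GSTF8, GSTU9 and GSTU27; 3.52% of all genes) and 0 for the mean and in the other 5 accessions, and edgeR with the labelled replicate number as a block called GSTU27 in C24. By edgeR the UV effect differed between accessions for 0 members (0% of all genes). An unadjusted p under 0.05 was reached by 10 members in C24, 6 in Ba-1, 4 in T1080, 3 each in Mh-0 and Lip-0, and 0 in Got-7. The spread behind these tests was wide, with a biological coefficient of variation of 26.7%. It was 13.2% when the columns were modelled by block and set. That grouping was drawn up with values of these libraries known, so the lower figure is no support for it.

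The member with the smallest p for the mean was GSTU24, a tau enzyme known for conjugating the explosive TNT, with a log2 difference of UV minus mock of 1.60 ± 0.92 (SE, edgeR adjusted p = 1.0). Its UV libraries did not lie together. In Ba-1 it had 85.4 and 0.544 CPM with UV and 2.01 and 0.436 CPM with mock, and in Lip-0 it had 297 and 169 CPM with UV and 483 and 217 CPM with mock. The next smallest p-values for the mean belonged to GSTU19 (log2 0.23), GSTU28 (log2 -0.35) and GSTU7 (log2 0.18), all with an edgeR adjusted p of 1.0. In Ba-1, GSTU4 had 28.1 and 1.09 CPM with UV and 0 and 0.726 CPM with mock (log2 4.95 ± 1.42, edgeR adjusted p = 1.0). In GSTU24 and GSTU4 the high Ba-1 UV library was library 3, and library 4 lay near the mock libraries.

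In C24, GSTU9 had 0.0997 and 0.139 CPM with UV and 1.71 and 1.31 CPM with mock, a log2 difference of -3.59 ± 0.84 (edgeR adjusted p = 0.087). GSTF8, a widely used stress marker among plant glutathione transferases, had 156 and 176 CPM with UV in C24, against 406 and 365 CPM with mock (log2 -1.22 ± 0.33, edgeR adjusted p = 0.129). GSTU27 had 68.3 and 44.5 CPM with UV in C24 and 157 and 161 CPM with mock (log2 -1.49 ± 0.47, edgeR adjusted p = 0.162). For these 3 genes the 2 treatments did not overlap in C24, but the genes were picked by their small p-values there. The share of all genes with no overlap in C24 was not counted. GSTF3 gave log2 -3.08 ± 0.91 in the same contrast (edgeR adjusted p = 0.15). Blocks C, D and E split these C24 libraries, with 5 and 6 (mock) in C, 7 (UV) in D and 8 (UV) in E.

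GSTU9 shows how the levels fell into place by column. It had 270 and 241 CPM with UV and 264 CPM with mock in T1080, and 226 and 306 CPM with UV and 344 and 231 CPM with mock in Mh-0. In Lip-0 it had 308 and 311 CPM with UV, against 429 and 317 CPM with mock. In Ba-1, C24 and Got-7 it stayed at or under 1.71 CPM in all 11 libraries. The levels of this gene thus differed between columns 12 to 22 and columns 1 to 11 in libraries of both labelled treatments, and that split is also one between labelled accessions.

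**Figure D1:**
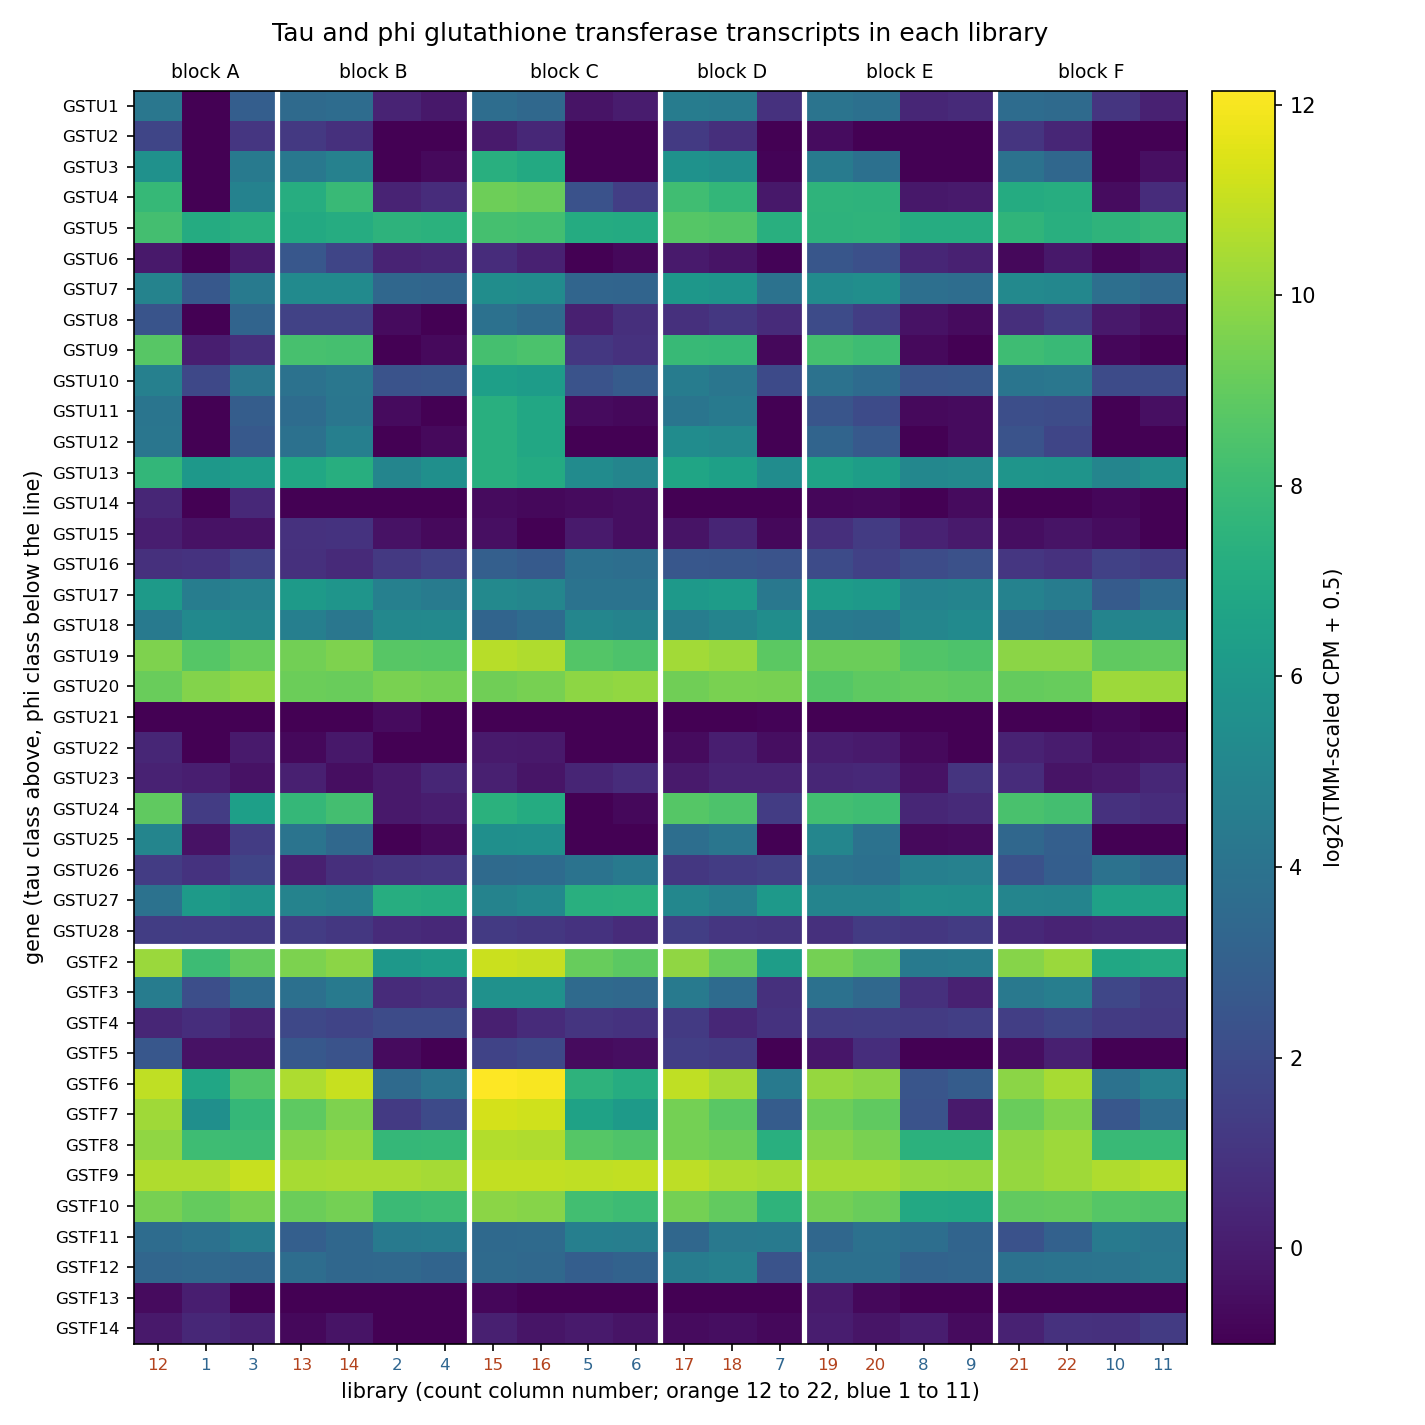
Log2(CPM + 0.5) of the 41 members (rows, tau class above the white line and phi class below) in each of the 22 libraries, grouped by block with columns 12 to 22 (orange numbers) left of columns 1 to 11 (blue numbers). GSTU9 is at 226 CPM or above in every orange column and at or under 1.71 CPM in every blue column, and library 3 is brighter than its blue neighbours for GSTU3, GSTU4 and GSTU24.

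Within the blocks, most members of both classes were higher in columns 12 to 22 than in columns 1 to 11. Of the 37 tested, 26 rose and 6 fell at an edgeR adjusted p under 0.05, while 37.7% of all tested genes rose, 38.5% fell and 76.2% were called in either direction. The share of members called in either direction (32 of 37) was near that background. The direction and the size were less evenly spread, with 24 members over a log2 difference of 1 (15.7% of all genes) and 9 over 5 (1.93% of all genes). The median was 1.76 over the tested members and -0.01 over all tested genes. Of the 29 members that would also have passed the filter on columns 1 to 11 alone, 18 rose, 6 fell and 5 were not called. Their median log2 difference was 1.31, with 16 over 1 and 5 over 5, so the larger counts above rest partly on the filter. The direction was the same in all 6 blocks for 23 members that were higher and 4 that were lower. Ranges did not overlap for 10 members above (13.4% of all genes) and 1 below (10.8% of all genes).

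**Figure D2:**
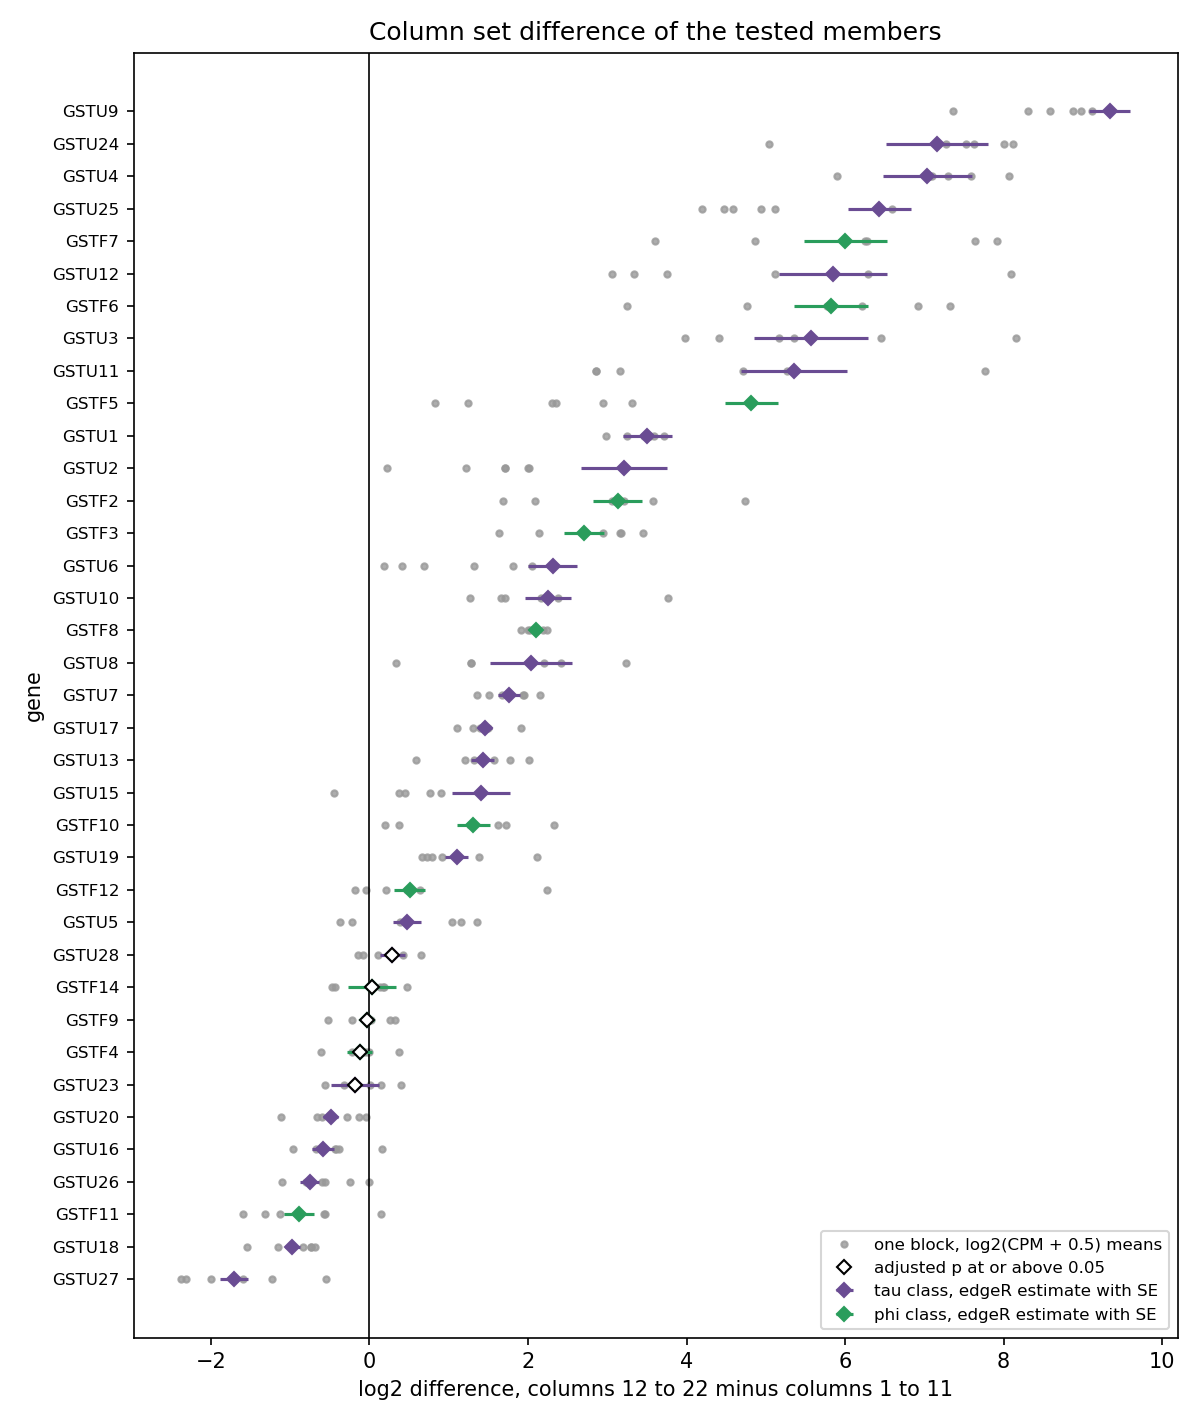
Log2 difference of columns 12 to 22 minus columns 1 to 11 (horizontal axis) for the 37 tested members, with edgeR estimates and standard errors (diamonds, purple for tau and green for phi, open where the adjusted p is at or above 0.05) and the 6 blocks as grey points from log2(CPM + 0.5) means. The estimates run from 9.34 for GSTU9 to -1.71 for GSTU27, and the grey points of low genes lie left of their diamonds because of the added 0.5.

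The largest difference belonged to GSTU9 (AT5G62480, chr5:25088527-25089626, 2 exons), which ranked 11th of the 18149 genes by size of rise. It had 226 to 429 CPM in columns 12 to 22 (median 306) and 0 to 1.71 CPM in columns 1 to 11 (median 0.136), a log2 difference of 9.34 ± 0.26 (SE, edgeR adjusted p = 3.12e-15). Library 3, at 1.21 CPM, was not its highest library in columns 1 to 11. The size varied between blocks, from 7.36 in block C to 9.12 in block B on the log2(CPM + 0.5) scale. Block C had 311 and 344 CPM in columns 15 and 16 and 1.71 and 1.31 CPM in columns 5 and 6. Block B had 317 and 308 CPM in columns 13 and 14 and 0 and 0.136 CPM in columns 2 and 4. The 2 blocks thus differed mainly in columns 1 to 11, at levels near 0 where the added 0.5 limits the change.

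GSTU24 (AT1G17170, chr1:5869543-5870883, 2 exons) followed, with 135 to 483 CPM in columns 12 to 22 (median 296) and 0 to 85.4 CPM in columns 1 to 11 (median 0.959). The log2 difference was 7.16 ± 0.64 (edgeR adjusted p = 3.16e-08), and the value of 85.4 CPM was that of library 3, with the other 10 at or under 2.01 CPM. GSTU25 (AT1G17180, chr1:5872024-5873124, 2 exons), its neighbour on chromosome 1 and likewise known for TNT conjugation, had 7.44 to 48.8 CPM in columns 12 to 22 (median 16.3) and 0 to 2.06 CPM in columns 1 to 11 (median 0). Its log2 difference was 6.43 ± 0.40, given with no p-value because GSTU25 passed the filter only through columns 12 to 22. Neither gene's ranges overlapped.

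GSTU4 (AT2G29460, chr2:12626478-12627891, 2 exons) had 136 to 612 CPM in columns 12 to 22 (median 212) and 0 to 28.1 CPM in columns 1 to 11 (median 0.726), with a log2 difference of 7.04 ± 0.56 (edgeR adjusted p = 7.09e-09). GSTU3 (AT2G29470, chr2:12628422-12629640, 2 exons), its neighbour on chromosome 2, had 10.0 to 158 CPM in columns 12 to 22 (median 27.2) and 0 to 19.9 CPM in columns 1 to 11 (median 0; log2 5.57 ± 0.72). GSTU12 (AT1G69920, chr1:26334250-26335630, 2 exons) had 2.89 to 158 CPM in columns 12 to 22 (median 17.5) and 0 to 5.79 CPM in columns 1 to 11 (median 0; log2 5.85 ± 0.68). GSTU3 and GSTU12 passed the filter only through columns 12 to 22, so no p-value is given for them. The ranges of GSTU3 and GSTU12 overlapped through library 3 alone, since the other 10 libraries of columns 1 to 11 held at most 0.217 and 0.16 CPM.

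Among the phi class, GSTF6 (AT1G02930, chr1:661088-662475, 3 exons) had 930 to 4541 CPM in columns 12 to 22 (median 1456) and 5.13 to 376 CPM in columns 1 to 11 (median 20.8). The log2 difference was 5.83 ± 0.47 (edgeR adjusted p = 7.57e-09). GSTF7 (AT1G02920, chr1:658578-659980, 3 exons), a near copy of GSTF6 on chromosome 1, had 437 to 2496 CPM in columns 12 to 22 (median 672) and 0.479 to 214 CPM in columns 1 to 11 (median 6.63; log2 6.00 ± 0.52, edgeR adjusted p = 2.16e-08). For both, libraries 15 and 16 were the highest of columns 12 to 22, and libraries 1, 3, 5 and 6 were the highest of columns 1 to 11. GSTF6 and GSTF7 share 94.7% of their coding bases and a longest identical run of 116 bases, so how the authors' counting divided reads between them is uncertain.

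**Figure D3:**
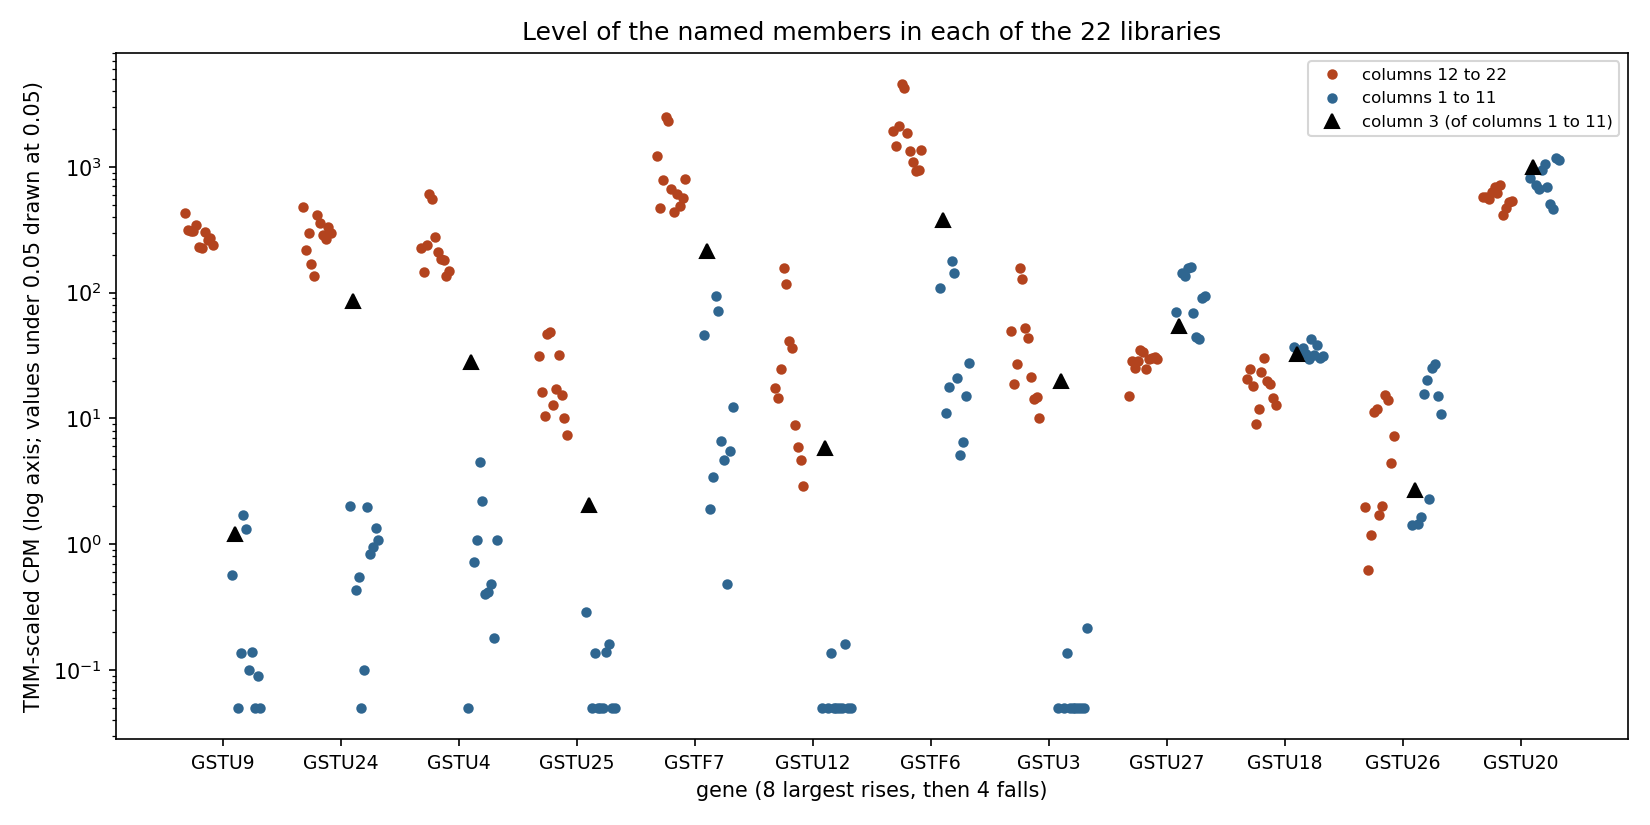
CPM (log axis) of the 8 members with the largest rises and 4 with the largest falls in each of the 22 libraries, columns 12 to 22 in orange left of columns 1 to 11 in blue, with library 3 as a black triangle and values under 0.05 drawn at 0.05. Library 3 is the highest of columns 1 to 11 for GSTU24, GSTU4, GSTU25, GSTF7, GSTU12, GSTF6 and GSTU3, and lies among the others for GSTU9.

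GSTF8 (AT2G47730, chr2:19556326-19559485, 6 exons) had a smaller difference with the smallest standard error among the members. It had 582 to 1608 CPM in columns 12 to 22 (median 995) and 156 to 406 CPM in columns 1 to 11 (median 230), with a log2 difference of 2.1 ± 0.05 (edgeR adjusted p = 3.73e-18). The 6 blocks lay between 1.91 and 2.24 on the log2(CPM + 0.5) scale. Its annotation overlaps that of AT2G47720 on the same strand by 516 bases, so some of its reads cannot be assigned with certainty. The other raised phi members were GSTF5 (log2 4.82), GSTF2, which binds camalexin in vitro (log2 3.13), GSTF3 (log2 2.71), GSTF10 (log2 1.31) and GSTF12 (log2 0.51). Of these, GSTF5 passed the filter only through columns 12 to 22. GSTF2 (AT4G02520) had 515 to 2218 CPM in columns 12 to 22 and 20.5 to 547 CPM in columns 1 to 11, and its ranges overlapped through library 20 (515 CPM) and library 5 (547 CPM). GSTF2 is overlapped on the other strand by AT4G02510 over 1442 bases, and whether the authors counted by strand is not stated in the labels.

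The other tau members that rose were GSTU11 (log2 5.36), GSTU1 (3.51), GSTU2 (3.21), GSTU6 (2.31), GSTU10 (2.25), GSTU8 (2.04), GSTU7 (1.76), GSTU17 (1.45), GSTU13 (1.43), GSTU15 (1.41), GSTU19 (1.10) and GSTU5 (0.48), all on the log2 scale. Of these, GSTU11, GSTU2, GSTU6 and GSTU15 passed the filter only through columns 12 to 22. The edgeR adjusted p of the rest ran from 6.16e-12 to 0.0206. GSTU7 (AT2G29420) had 28.7 to 62.2 CPM in columns 12 to 22 and 5.74 to 20.4 CPM in columns 1 to 11, with no overlap. GSTU13 (AT1G27130), which acts in the metabolism of indole glucosinolates in the pathway of the myrosinase PEN2, had 54.9 to 210 CPM in columns 12 to 22 and 30.6 to 77.9 CPM in columns 1 to 11, and its ranges overlapped. GSTU2, GSTU6 and GSTU15 stayed under 6 CPM everywhere, so their differences rest on few reads. GSTU2 and GSTU7 are overlapped on the other strand by AT2G29485 (849 bases) and AT2G08340 (636 bases).

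6 members fell, 5 of the tau class and 1 of the phi class. GSTU27 (AT3G43800, chr3:15660770-15661987, 2 exons) had 15.1 to 34.9 CPM in columns 12 to 22 (median 29.6) and 43.1 to 161 CPM in columns 1 to 11 (median 91.0), with no overlap and a log2 difference of -1.71 ± 0.18 (edgeR adjusted p = 1.39e-07). GSTU18 (AT1G10360, chr1:3395551-3396953, 2 exons) had 8.97 to 30.3 CPM in columns 12 to 22 (median 18.7) and 29.4 to 43.0 CPM in columns 1 to 11 (median 32.7; log2 -0.97 ± 0.10, edgeR adjusted p = 1.43e-08). Its ranges met only through library 18 (30.3 CPM) on one side and libraries 6 and 10 (29.4 and 30.3 CPM) on the other. GSTU20 (AT1G78370, chr1:29484120-29485389, 2 exons), known as an interactor of the jasmonate-conjugating enzyme FIN219, had 415 to 720 CPM in columns 12 to 22 (median 573) and 465 to 1179 CPM in columns 1 to 11 (median 822; log2 -0.49 ± 0.10, edgeR adjusted p = 0.000169).

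GSTU26 (AT1G17190, chr1:5875295-5876620, 2 exons) had 0.628 to 15.4 CPM in columns 12 to 22 (median 4.45) and 1.43 to 26.8 CPM in columns 1 to 11 (median 10.9; log2 -0.75 ± 0.12, edgeR adjusted p = 1.01e-05). Its levels differed more between blocks than between column sets. Blocks A, B and D held 0.628 to 2.00 CPM in columns 12 to 22 and 1.43 to 2.71 CPM in columns 1 to 11, and blocks C, E and F held 4.45 to 15.4 CPM in columns 12 to 22 and 10.9 to 26.8 CPM in columns 1 to 11. The other falls were GSTU16 (AT1G59700, log2 -0.58, edgeR adjusted p = 0.00079) and GSTF11 (AT3G03190, log2 -0.89, edgeR adjusted p = 0.000341), each in 5 of 6 blocks. GSTF11 lies wholly within AT3G03200 on the other strand, so its reads are uncertain. Without the blocks in the fit, GSTU26 and GSTU16 were no longer called (log2 -0.77, edgeR adjusted p = 0.274, and log2 -0.52, edgeR adjusted p = 0.321).

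5 tested members were not called. GSTF9 (AT2G30860, chr2:13138882-13140392, 3 exons), the phi member with the highest level per kilobase in columns 1 to 11, had 1055 to 1980 CPM in columns 12 to 22 and 1092 to 2093 CPM in columns 1 to 11 (log2 -0.03 ± 0.08, edgeR adjusted p = 0.739). GSTU28 (AT1G53680) had 0.723 to 2.19 CPM in columns 12 to 22 and 0.869 to 2.01 CPM in columns 1 to 11 (log2 0.29 ± 0.15, edgeR adjusted p = 0.108). GSTU23 (log2 -0.18 ± 0.30), GSTF4 (log2 -0.12 ± 0.16) and GSTF14 (log2 0.03 ± 0.30) were under 4 CPM in every library, with edgeR adjusted p from 0.501 to 0.943.

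Neighbouring copies were compared by the difference of their 6 blockwise changes, each on the log2(CPM + 0.5) scale, with an exact two-sided sign-flip permutation test over the blocks. Of the 21 neighbouring or near-identical pairs, 17 had both copies tested. In 11 of these 17, a copy had passed the filter only through columns 12 to 22, and the added 0.5 holds the change of such a copy low, so values are given for them with no test. In the other 6 pairs, 5 differed at the smallest p the test allows, 0.03125 before and 0.0409 after Benjamini-Hochberg adjustment over all 17.

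In the GSTU1 to GSTU7 array on chromosome 2, GSTU4 and its neighbour GSTU5 moved furthest apart. GSTU5 (AT2G29450, chr2:12624403-12625790, 2 exons) had 127 to 407 CPM in columns 12 to 22 and 133 to 216 CPM in columns 1 to 11, and was higher in 4 of the 6 blocks. The change of GSTU4 exceeded that of GSTU5 by 6.62 ± 0.98 on this scale (SD, n = 6 blocks, exact adjusted p = 0.0409). The 2 copies share 75.0% of their coding bases and no identical run over 14 bases, and the 250 bases before GSTU4 hold no TGACG while those before GSTU5 hold 1. The neighbours GSTU1, GSTU2 and GSTU3 changed by 3.42, 1.48 and 5.59 on this scale. GSTU2 was at or under 2.84 CPM in every library and at 0 CPM in all of columns 1 to 11 but library 3, and without that library its fitted log2 difference (6.37) was above that of GSTU1 (4.08). GSTU6 changed by 1.08 and GSTU7 by 1.76.

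GSTU17 and GSTU18 moved in opposite directions in all 6 blocks. GSTU17 (AT1G10370, chr1:3396883-3398358, 2 exons), also known as ERD9 and placed in light and abscisic acid responses, had 22.5 to 75.8 CPM in columns 12 to 22 (median 66.7) and 6.28 to 29.6 CPM in columns 1 to 11 (median 21.9). GSTU18, whose values are given above, was lower in columns 12 to 22. The difference between the copies was 2.40 ± 0.26 (SD, n = 6, exact adjusted p = 0.0409), the least varied of the large ones. They share 81.6% of their coding bases, and their annotated genes overlap by 71 bases on the same strand, so reads from that stretch could be given to either.

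GSTU19 had the highest median level per kilobase of the tau members in columns 12 to 22 and GSTU20 in columns 1 to 11, and these neighbours also parted in every block. GSTU19 (AT1G78380, chr1:29486387-29488007, 2 exons), long known as a safener-inducible enzyme, had 587 to 1704 CPM in columns 12 to 22 (median 936) and 350 to 538 CPM in columns 1 to 11 (median 407), with no overlap. The change of GSTU19 exceeded that of GSTU20 by 1.57 ± 0.69 (SD, n = 6, exact adjusted p = 0.0409). GSTU19 took 23.4% to 37.1% of the tau counts in each of columns 12 to 22, and GSTU20 took 39.9% to 57.4% in each of columns 1 to 11, where it was the largest contributor to the tau sum in every library. In columns 12 to 22 that contributor was GSTU19 in all 11.

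In the GSTU24 to GSTU26 array GSTU24 and GSTU25 rose and GSTU26 fell. On this scale the changes were 7.27, 4.99 and -0.55. The order of GSTU24 and GSTU25 was not stable, since their fitted log2 differences were 8.20 and 8.49 without library 3. GSTU25 and GSTU26 share 72.2% of their coding bases and no identical run over 17 bases, and TGACG occurs once in the window before GSTU25 and not in that before GSTU26. GSTU11 and GSTU12 changed by 4.44 and 4.94, and GSTU15 and GSTU16 by 0.57 and -0.45. GSTU15 was at or under 1.93 CPM throughout.

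In the phi array on chromosome 1, GSTF4 did not pass (log2 -0.12) while GSTF5, GSTF6 and GSTF7 rose. GSTF5 (AT1G02940, chr1:662963-664290, 5 exons) had 0.202 to 5.65 CPM in columns 12 to 22 (median 2.19) and 0 to 0.287 CPM in columns 1 to 11 (median 0), and libraries 12 to 14 held its 3 highest values. GSTF4, GSTF5 and GSTF6 changed by -0.09, 2.17 and 5.71 on this scale. The change of GSTF6 minus that of GSTF7 was -0.38 ± 0.27 (SD, n = 6, exact adjusted p = 0.0409), and with 2 in place of 0.5 added to the CPM this pair no longer passed (exact adjusted p = 0.166). The pair also did not pass without library 9 (difference -0.16) or without library 17 (difference -0.37). In library 9 GSTF7 had 0.479 CPM, against 4.71 CPM in library 8 of the same block. GSTF2 and GSTF3, which share 94.5% of their coding bases on different chromosomes, changed by 3.06 and 2.75 and did not pass (exact adjusted p = 0.0996). With 2 added in place of 0.5 this pair did pass (difference 0.83, exact adjusted p = 0.0354).

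GSTF9 and GSTF10, neighbours on chromosome 2, differed by -1.28 ± 0.56 (GSTF9 minus GSTF10, SD, n = 6, exact adjusted p = 0.0409), with GSTF10 the higher change in every block. GSTF10 (AT2G30870, chr2:13141290-13142676, 3 exons) had 499 to 946 CPM in columns 12 to 22 (median 646) and 119 to 709 CPM in columns 1 to 11 (median 264). Libraries 3 (709 CPM) and 1 (532 CPM), both of block A, lay within the range of columns 12 to 22, and the change in block A was 0.20 and in block F 0.38, against 1.27 to 2.33 in the other 4. The pair shares 77.6% of its coding bases. TGACG occurs once before GSTF10, 15 bases from its annotated start, and is not in the window before GSTF9. In the pairs GSTU17 and GSTU18, GSTU19 and GSTU20, and GSTF6 and GSTF7, which also passed, neither window holds TGACG.

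**Figure D4:**
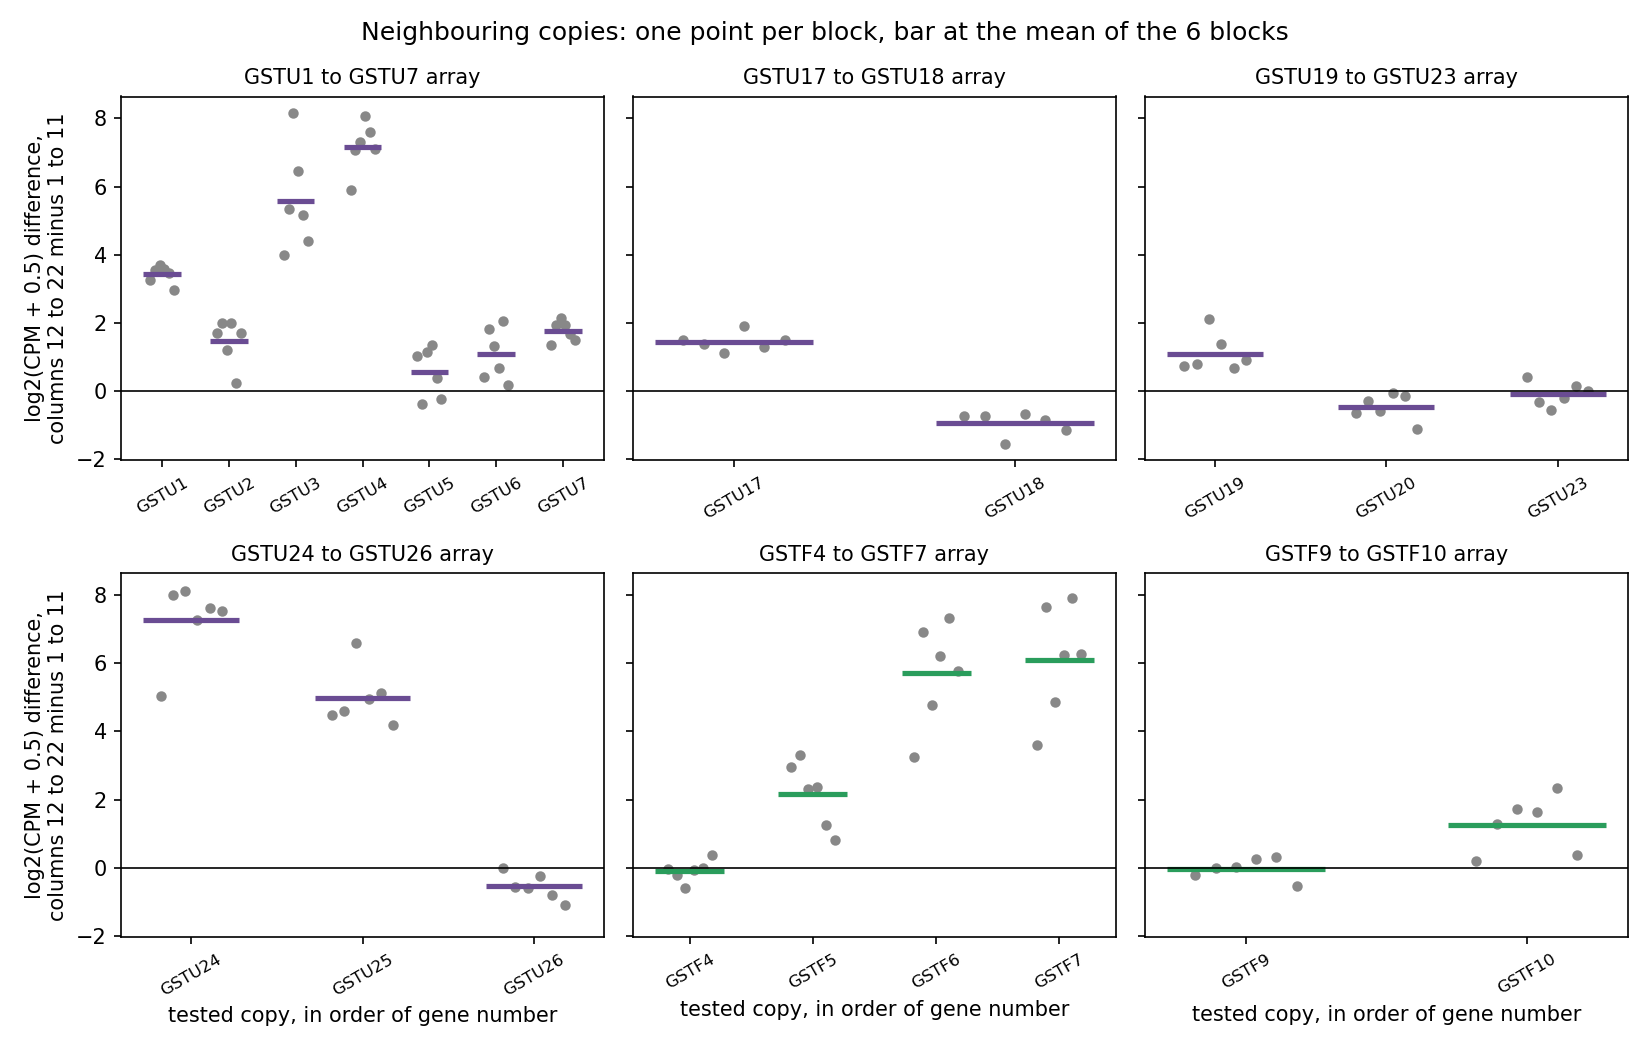
Change of each tested copy in 6 arrays, as the difference of columns 12 to 22 minus columns 1 to 11 in log2(CPM + 0.5), with 1 point per block and a bar at the mean of the 6 blocks (purple tau, green phi). GSTU17 is above 0 and GSTU18 below 0 in every block, GSTU4 lies above 5 while GSTU5 lies between -0.37 and 1.35, and GSTF10 lies above 0 in every block while GSTF9 lies between -0.52 and 0.32.

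The tau and phi classes had like medians. Of 25 tested tau genes 18 rose, 5 fell and 2 were not called, with a median log2 difference of 1.76, and of 12 tested phi genes 8 rose, 1 fell and 3 were not called, with a median of 1.71. All tested genes had a median of -0.01, with 37.7% rising and 38.5% falling. The class counts include the 8 members that passed the filter only through columns 12 to 22, all tau but GSTF5. The 7 largest tau differences and the 2 largest phi differences were over 5 on the log2 scale. Those tau genes include GSTU3, GSTU11, GSTU12 and GSTU25, which are among the 8. As summed levels, the phi genes had 4656 to 13820 CPM in columns 12 to 22 (median 6346) and 1433 to 4207 CPM in columns 1 to 11 (median 2360). The tau genes had 2291 to 4660 CPM in columns 12 to 22 (median 2740) and 1166 to 2093 CPM in columns 1 to 11 (median 1577). Neither sum overlapped between the column sets. In columns 1 to 11 GSTF9 alone gave 49.8% to 76.2% of the phi counts, while in columns 12 to 22 the largest contributor was GSTF6 in 7 libraries and GSTF9 in 4. No test over members was made, since members are not replicates of a class.

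The size of the column set difference varied between blocks for 16 of the 37 tested members by the edgeR F test for block by set (33.5% of all genes). The lead belonged to GSTU5, GSTF12 and GSTU27 (edgeR adjusted p = 1.04e-08, 1.06e-07 and 8.88e-07). GSTU5 was higher in columns 12 to 22 by 1.04 in block A, 1.15 in C and 1.35 in D on the log2(CPM + 0.5) scale, but lower by values of -0.37 in B and -0.22 in F. In block D it had 407 and 385 CPM in columns 17 and 18, against 155 CPM in column 7. GSTF12 (AT5G17220) stood apart in block D alone, with 22.9 and 25.9 CPM in columns 17 and 18 and 4.74 CPM in column 7, a change of 2.25, against -0.19 to 0.64 in the other 5. GSTU27 changed least in block E, with 29.6 and 30.1 CPM in columns 19 and 20 and 44.5 and 43.1 CPM in columns 8 and 9, a change of -0.55, against -1.23 to -2.37 in the other 5.

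Block C had the highest levels of several raised genes. GSTU11 (AT1G69930) had 157 and 118 CPM in columns 15 and 16, against 3.52 to 21.0 CPM in the other 9 of columns 12 to 22, and GSTU12 had 158 and 118 CPM there, against 2.89 to 41.2 CPM in the others. GSTU10 (AT1G74590) had 83.8 and 76.1 CPM in columns 15 and 16, against 11.7 to 26.1 CPM in the others. GSTU19 had its largest change in this block (2.12, against 0.66 to 1.38 in the other 5). GSTU6 (AT2G29440) was not called for block by set (edgeR adjusted p = 0.471). It had 5.44 and 2.86 CPM in columns 13 and 14 and 5.19 and 4.09 CPM in columns 19 and 20, against 0.101 to 1.09 CPM in the other 7, and the same blocks B and E held its 4 highest values of columns 1 to 11 (0.639 to 0.831 CPM). GSTU6 is overlapped by AT2G29430 on the other strand over 398 bases.

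Library 3 was high for many of the largest rises but not for GSTU9, the largest (1.21 CPM, against 1.71 CPM in library 5). Library 3 was the highest of the 11 libraries of columns 1 to 11 for 17 of the 26 raised members (65.4%). It was so for 18 of the 37 tested members, against 9.93% of all tested genes and an uncounted share of all raised genes. By label it is a UV library, as are libraries 4, 7, 8 and 11 of the same columns, for which this was not seen in GSTU3, GSTU4 and GSTU24. Those genes were picked because library 3 stood out in them, and the part of labelled treatment was not tested. The block partner of library 3, library 1 (labelled Ba-1 mock 1), had 0 CPM for GSTU3 and GSTU4. Without library 3 all 26 rises were still called, and 15 members, in place of 10, had columns 12 to 22 wholly above columns 1 to 11 (14.1% of all genes). The fitted log2 differences then came to 9.99 for GSTU3, 10.1 for GSTU12, 8.67 for GSTU11, 8.49 for GSTU25, 8.20 for GSTU24, 8.08 for GSTU4, 6.37 for GSTU2 and 2.84 for GSTU8. Without library 12 (labelled Lip-0 mock 1), which leaves block A with no library of columns 12 to 22, they were 9.95, 10.1, 8.67, 8.74, 8.21, 8.01, 6.29 and 2.74 for the same genes. For genes near 0 CPM these fitted values depend on the prior count and are no bounds. GSTU11 came to 4.73 without library 6 (labelled C24 mock 2), and GSTU5 was not called without library 12 (log2 0.39, edgeR adjusted p = 0.0691).

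Genes of glutathione turnover and transport, other transferase classes and sulfate assimilation moved less uniformly than the tau and phi genes. The counts of each list below stand beside 37.7% of all tested genes that rose and 38.5% that fell. In the list for glutathione synthesis, recycling and turnover, 6 of 11 tested genes rose, 3 fell and the median was 0.57. GGT1, an apoplastic γ-glutamyl transferase, had 91.6 to 245 CPM in columns 12 to 22 and 29.7 to 52.0 CPM in columns 1 to 11 (log2 1.80, edgeR adjusted p = 1.15e-13). GR1, a cytosolic glutathione reductase (log2 1.24), and PCS1, the phytochelatin synthase that also trims glutathione conjugates (log2 1.79), rose as well. GSH1, the first enzyme of glutathione synthesis, did not pass (log2 0.03, edgeR adjusted p = 0.727).

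Of the 6 genes for transport of conjugates and glutathione, 3 rose, 1 fell and the median was 0.24. ABCC3, a vacuolar pump for glutathione conjugates, had 1057 to 1893 CPM in columns 12 to 22 and 23.9 to 126 CPM in columns 1 to 11 (log2 5.02 ± 0.22, edgeR adjusted p = 3.2e-12). The chloroplast glutathione transporters CLT3 (log2 0.69) rose and CLT2 (log2 -0.25) fell. Among other glutathione transferase classes, 4 of 11 tested genes rose and 6 fell, with a median of -0.24. GSTL1 of the lambda class had 17.1 to 182 CPM in columns 12 to 22 and 0 to 3.46 CPM in columns 1 to 11 (log2 6.11). GSTZ1, a zeta enzyme of tyrosine breakdown, rose (log2 1.54) and DHAR3, a chloroplast dehydroascorbate reductase, fell (log2 -0.37). For sulfate assimilation and cysteine supply 3 of 10 rose and 3 fell, with a median of -0.02, led by the serine acetyltransferases SERAT2;1 (log2 2.25) and SERAT2;2 (log2 1.58) and the fall of the reductase APR2 (log2 -0.89).

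The list of detoxification partners and their regulators rose more widely, with 11 of 13 genes higher (37.7% of all tested genes), 0 lower and a median of 3.00. UGT74E2, a glucosyltransferase of the auxin precursor indole-3-butyric acid, had 497 to 1433 CPM in columns 12 to 22 and 0 to 9.25 CPM in columns 1 to 11 (log2 9.67 ± 0.38). The 9.25 CPM was that of library 3, and no other library of columns 1 to 11 reached 1 CPM. UGT74E2 thus passed the filter only through columns 12 to 22, so no p-value is given. The transcription factor NAC032 (log2 3.00) and the glucosyltransferase UGT73B5 (log2 5.40) also rose. TGA2, a bZIP factor that binds TGACG, did not pass (log2 -0.13, edgeR adjusted p = 0.0908), while its relatives TGA5 and TGA6 each rose by 0.46 and their coactivator SCL14 rose by 0.80 on the log2 scale. UGT73B4, chosen after its values were seen, was detected at over 1 CPM in libraries 15 to 18 alone (at most 50.1 CPM). It is counted among the 11 higher genes (log2 7.94), though it was higher in only 2 blocks and passed the filter only through columns 12 to 22.

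3 lists held partners of single members. The 4 camalexin genes all rose, with a median of 5.09, beside GSTF6. PAD3, the cytochrome P450 of the last steps, had 704 to 2884 CPM in columns 12 to 22 and 0 to 163 CPM in columns 1 to 11 (log2 8.19 ± 0.78, edgeR adjusted p = 6.82e-08), and CYP79B2 and CYP79B3, which open the pathway from tryptophan, had log2 differences of 3.67 and 1.50. Library 3 was again the highest of columns 1 to 11 for PAD3. Of 7 aliphatic glucosinolate genes, 5 fell and 2 rose, with a median of -1.73, beside the falls of GSTF11 and GSTU20. MYB28, the main regulator of that pathway, had 10.4 to 42.3 CPM in columns 12 to 22 and 53.2 to 142 CPM in columns 1 to 11 (log2 -2.10 ± 0.15, edgeR adjusted p = 3.99e-10), and CYP83A1 and MYB29 each fell by 1.73. Of 5 anthocyanin genes 4 rose, with a median of 0.69, beside GSTF12. DFR had 34.5 and 41.9 CPM in columns 17 and 18, against 8.23 CPM in column 7, with 6.71 to 20.6 CPM in the other 9 of columns 12 to 22. These are the libraries of block D, in which GSTF12 stood apart too.

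**Figure D5:**
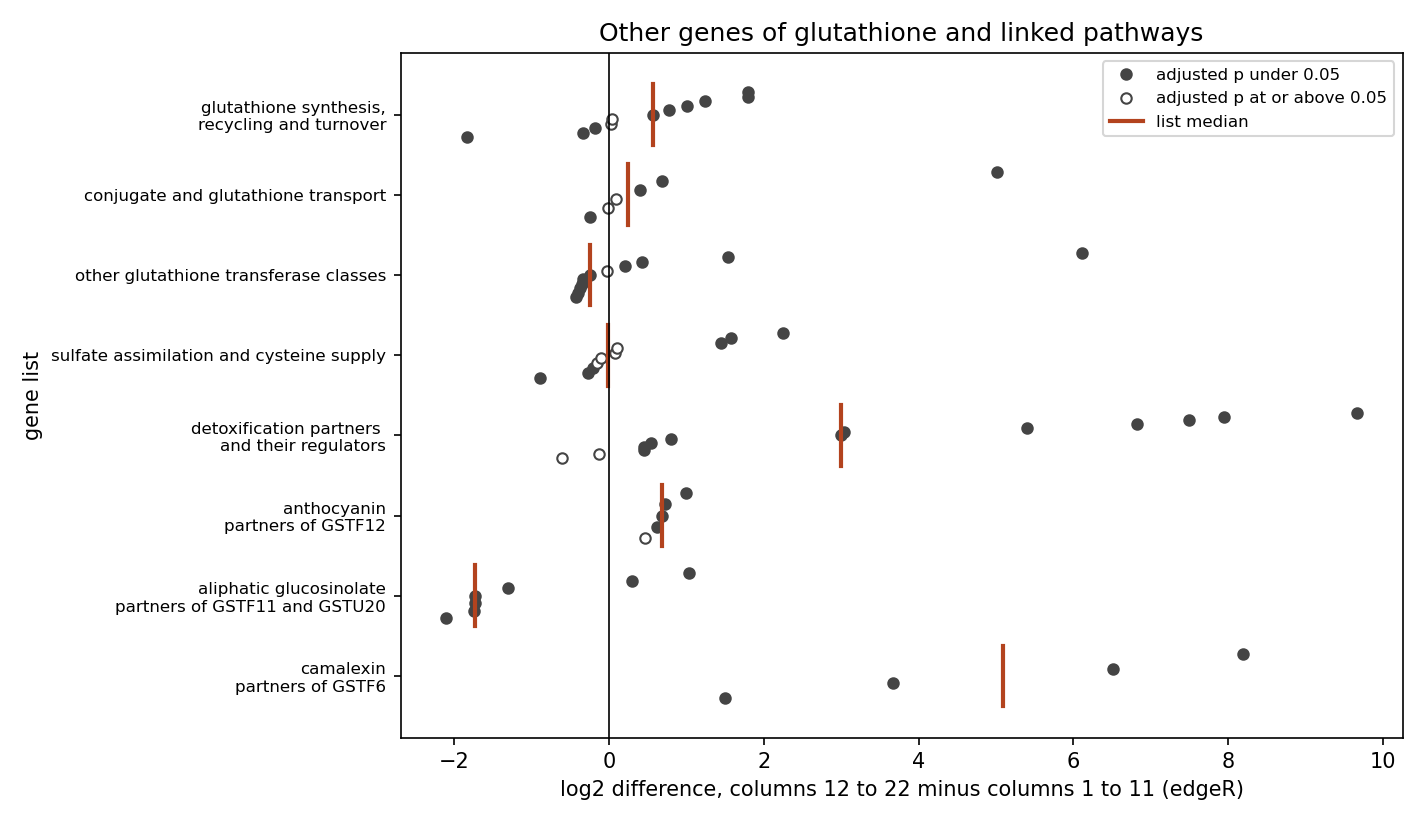
Log2 difference of columns 12 to 22 minus columns 1 to 11 (edgeR) for each tested gene of 8 lists around glutathione, filled where the adjusted p is under 0.05, with an orange bar at the median of the list. The camalexin (5.09) and detoxification (3.00) medians lie furthest right and the aliphatic glucosinolate median (-1.73) furthest left.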

How the data were processed

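The authors deposited raw counts for each locus, whole numbers that sum to a different total per library. The submitters' processing notes list TopHat, FastQC, TAIR10 and TAIR9, without versions or roles. The program that counted the reads, its annotation and its strand setting were not given in the sources used here. A number shared by column name and sample description matched each column to its sample, with 0 left unmatched. Loci reaching 1 CPM in 2 or more libraries (18149) were tested with edgeR 4.0.16 in R 4.3.3 (TMM, robust quasi-likelihood F test), with p-values adjusted by Benjamini and Hochberg over all of them and called under 0.05. For the labels, 12 group means were fitted and groups of 1 library shared the spread of the others. For the column sets, blocks and set were fitted, and 12 means of block and set for the test by block, where the lone libraries of blocks A and D are assumed to vary like the others. Errors of edgeR estimates are standard errors, taken from the estimate and its F statistic. Methods were tested on simulated counts.

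The members, lists, sets and blocks were chosen with earlier results of these data known. Values per library are given for the 8 largest rises and up to 5 largest falls with 1 sign in all 6 blocks (4 met this), for copies of pairs that passed, for members under 1 CPM in a whole block and over 5 in another, and for the 4 smallest p-values by label, with up to 3 genes per list. Other genes are named to complete a group, by choice after their values were seen. The alternatives were RLE factors, DESeq2 1.42.0, no low-count filter, fits without the column blocks, with labelled treatment added or with the labelled replicate number as a block, an added 2 in place of 0.5, and each library left out. Promoters and annotations came from the RefSeq genome of TAIR10.1 by locus code, which matched all 41 members. No protein sequence was used here.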

Additional observations from a re-analysis of the deposited data

Results flagged for a closer look

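The difference between columns 12 to 22 and columns 1 to 11 differed between the 6 blocks for 16 of the 37 tested members by the edgeR F test for block by set, where 33.5% of all tested genes passed. Among tau genes, the adjusted p was 0.0393 for GSTU3, 0.0462 for GSTU4, 1.04e-08 for GSTU5, 4.83e-05 for GSTU9, 0.0239 for GSTU10, 0.00698 for GSTU11, 0.032 for GSTU12, 0.0113 for GSTU18, 0.000247 for GSTU19, 7.11e-05 for GSTU20 and 8.88e-07 for GSTU27. Among phi genes, the edgeR adjusted p was 0.0124 for GSTF2, 0.0198 for GSTF6, 0.0449 for GSTF9, 0.000334 for GSTF10 and 1.06e-07 for GSTF12. GSTU5, GSTF9 and GSTF12 changed sign between blocks, and GSTU3, GSTU4, GSTU9, GSTU10, GSTU11, GSTU12, GSTU19, GSTF2, GSTF6 and GSTF10 were higher, and GSTU18, GSTU20 and GSTU27 lower, in columns 12 to 22 in all 6. Without library 3, GSTU3, GSTU4, GSTU11 and GSTU12 no longer passed (edgeR adjusted p = 0.914, 0.73, 0.337 and 0.881), and GSTU1, GSTU7 and GSTU8 then passed (edgeR adjusted p = 0.0452, 0.0234 and 0.000769), for 15 in all.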

How the results depend on the processing

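No called result changed direction under the alternatives tried. Of those not called, GSTF9 ran from -0.059 to 0.023, GSTF14 from -0.21 to 0.21 and the GSTU5 and GSTU6 pair from -0.76 to 0.0042. The number of members called for the column sets was 32 with RLE factors, DESeq2 or labelled treatment added, 33 of 41 with no filter, 30 without column blocks and 31 to 32 with each library left out. Of the single member values, 996 kept their side of the threshold and 3 lost it (GSTU5, GSTU16 and GSTU26, given above). Without column blocks the log2 differences were 2.39 for GSTF2, 4.58 for GSTF6, 4.55 for GSTF7, 5.02 for GSTU24, 4.52 for GSTU3 and 6.10 for GSTU4. DESeq2 gave 9.17 for GSTU3, 8.40 for GSTU12, 7.08 for GSTU11, 8.33 for GSTU24, 8.00 for GSTU25, 7.79 for GSTU4, 4.38 for GSTU2, 2.65 for GSTU8 and 10.0 for GSTU9. Variation by block was called for 16 members with RLE factors and 15 with no filter.

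By the labels, DESeq2 called 6 members in C24. With each library left out, C24 had 0 to 1 members called, Ba-1 had 0 to 2 (GSTU4 and GSTU24 without Ba-1 UV 2) and Lip-0 had 0 to 1 (GSTU16 without Lip-0 UV 1), and the cause was not tested. The labelled replicate numbers did not pair the libraries alike in every accession. The correlations of deviations between same-numbered libraries were 0.615 in Ba-1, 0.000105 in C24, -0.338 in Lip-0 and -0.28 in Mh-0. Got-7 and T1080, which each had a group of 1 library, were not examined. A replicate block called 1 member in C24 (GSTU27) and 0 in the other contrasts.

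Tandem pairs passing, counted over all 17, numbered 13 as analysed or with RLE factors and 15 with 2 added, and 8 of the 13 hold a copy that passed the filter only through columns 12 to 22. With each library left out there were 0 to 14, with 0 without C24 UV 1 or Lip-0 mock 1, which leave 5 blocks and a smallest exact p of 0.0625. Depth limits GSTU2, GSTU6, GSTU15, GSTU23 and GSTF14, which lay near the level of 3 counts in many libraries.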
